A study of Mus musculus with 21 samples.

Results

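The genes described here encode the enzymes that carry glucose carbon through glycolysis, lactate dehydrogenase, the pyruvate dehydrogenase complex and the TCA cycle, together with the enzymes of the malate-aspartate shuttle. They were chosen by name from the textbook pathway and matched by GENCODE mouse symbol. Of 36 names, 35 were found among the 5544 genes of the table, and Idh2 was not analysed here. RNA was sequenced from the cortex of male wild-type (WT) C57BL/6 mice aged 12 weeks, with 1 library per mouse. The HF-HI group (high-frequency head impact, n = 11) received 5 impacts a day for 6 days, 30 in all, under isoflurane, and was sampled 24 h after the last. Sham mice (n = 10) had isoflurane alone. The comparison asks which of these enzymes differ in RNA level after repeated head impact.

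Glycolysis splits glucose into pyruvate in the cytosol and yields a little ATP and NADH. Pyruvate is then either reduced to lactate or taken into mitochondria, where the pyruvate dehydrogenase complex makes acetyl-CoA for the TCA cycle, the main source of NADH and FADH2 for respiration. The brain relies mostly on glucose, neurons on mitochondrial oxidation and astrocytes more on glycolysis, and the malate-aspartate shuttle carries the electrons of cytosolic NADH into mitochondria.

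Values are variance-stabilized expression on a log2 scale, made by the authors from counts. A difference is the mean of HF-HI minus the mean of sham on that scale. A gene was called where limma's moderated test gave an adjusted p under 0.05 (Benjamini-Hochberg, over all 5544 genes). Depth in reads is unknown. From the spacing of the values, a relative depth per library was estimated, which ran from 0.580 to 1.26 in sham and from 0.548 to 1.64 in HF-HI. Its median was 0.864 in sham and 1.17 in HF-HI, so depth tended to be larger in HF-HI. The p-values measure spread between mice, and the SD of the 35 genes had a median of 0.126 in sham and 0.106 in HF-HI.

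HF-HI cortex had higher RNA of hexokinase 1, citrate synthase, 2-oxoglutarate dehydrogenase, mitochondrial malate dehydrogenase and cytosolic aspartate aminotransferase. RNA of triosephosphate isomerase, pyruvate kinase, Ldha, most pyruvate dehydrogenase subunits, Sucla2 and cytosolic malate dehydrogenase was lower. In all, 13 of the 35 genes were higher in HF-HI and 12 were lower, which is 37.1% and 34.3%. Over all genes 32.6% were higher and 33.6% lower (66.3% called in either direction), so the enzyme genes were called about as often as any others. The median difference was 0.015 for the 35 genes and -0.0086 for all genes, and the median absolute difference was 0.21 and 0.16. In 4 of the 35 (Hk1, Tpi1, Ogdh and Mdh2) no HF-HI library reached the sham range (11.4%), as for 13.5% of all genes. With libraries centred on their medians, 37.9% of all calls were higher, against 49.3% as deposited, and with quantile normalization 40.8%, with 13 of the enzyme genes higher and 13 lower under each.

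**Figure D1:**
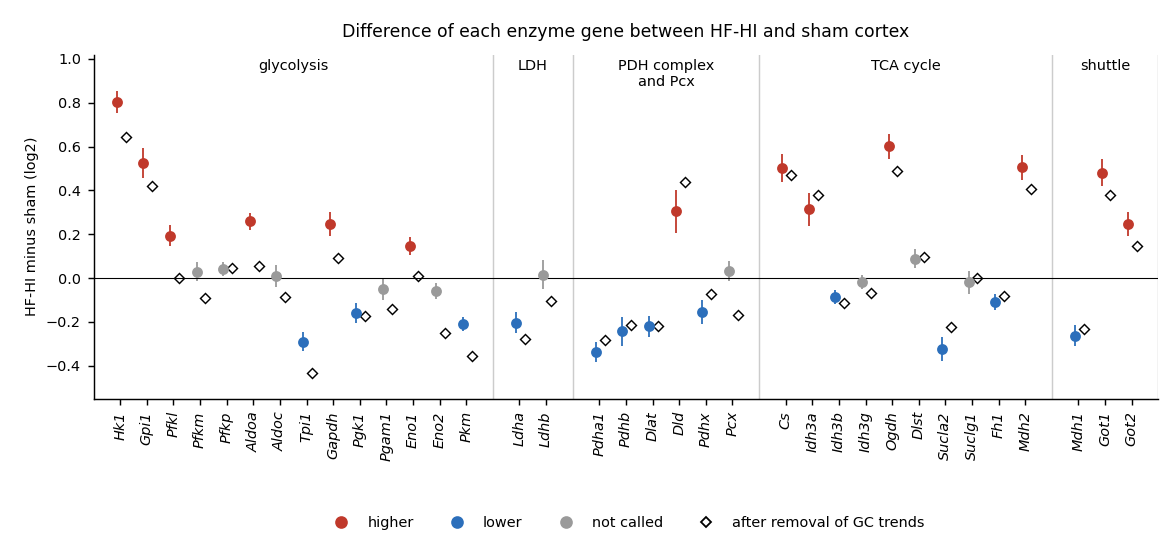
Difference between HF-HI and sham (log2) for each of the 35 genes, ordered by pathway step, with the SE as bars. Filled points are coloured by call, and open diamonds give the difference after each library's trend on GC content was removed. Differences run from -0.34 (Pdha1) to 0.81 (Hk1).

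The tissue label was checked against cell type markers. All 14 neuronal markers were present, with Snap25 (0.15) the most abundant per kilobase of exon, and so were 10 of 12 astrocyte and 8 of 10 oligodendrocyte markers. Only 3 of 11 microglial, 2 of 8 endothelial, 2 of 5 choroid plexus and 2 of 5 red blood cell markers were in the table, with Slco1a4, Enpp2 and Hbb-bs the most abundant of the last 3 lists. Defining markers such as Aif1, P2ry12, Cldn5 and Pecam1 were not analysed here. Neuronal markers differed between the groups: 9 were higher and 1 lower in HF-HI, among them Slc17a7 (difference 0.89), Rbfox3 (0.83) and Stmn2 (0.70). Of the markers of inhibitory neurons, Slc32a1 was higher (0.64, or 0.30 with GC trends removed), and Gad1 (-0.097) and Gad2 (-0.010) were not called. With GC trends removed 7 neuronal markers were higher and 0 lower, with Tubb3, Syn1 and Map2 no longer called. Snap25 lost its call with libraries centred, with depth as a covariate and without sham replicates 1 to 3, Tubb3 lost its call with libraries centred and without those 3 libraries, and Gad1 was called lower with libraries centred (-0.15) and with depth as a covariate (-0.14). The summed level of the neuronal markers, as log2, ran from 16.59 to 16.71 in sham and from 16.72 to 16.84 in HF-HI. Of the astrocyte markers, 4 were higher and 4 lower, or 3 and 5 with GC trends removed, and their summed level ran from 15.96 to 16.11 and from 16.03 to 16.16. Of the oligodendrocyte markers 3 were higher and 0 lower, with Mbp at 0.39, or 2 and 2 with GC trends removed. Their summed level ran from 15.27 to 15.99 in sham (median 15.58) and from 15.31 up in HF-HI (median 15.75), the ranges overlapped almost wholly, and the SD was 0.25 and 0.17. Of the microglial markers 1 was higher and 2 were lower, with summed levels from 10.98 to 11.11 and from 10.74 to 11.01. The higher marker, Csf1r (0.13), was not called with libraries centred, with depth as a covariate or with GC trends removed (-0.0038, adjusted p = 0.939), which left 0 higher and 2 lower. Of the endothelial markers 1 was higher and 1 lower, with summed levels from 10.12 to 10.34 and from 10.19 to 10.32. The summed level of the choroid plexus markers ran from 11.37 to 12.87 in sham (highest in replicate 3) and from 11.65 to 14.13 in HF-HI, where replicate 3 stood apart from a median of 11.72. None of the 35 enzyme genes gained or lost a call in limma without sham replicate 3, apart from Dlst, or without HF-HI replicate 3. Choroid plexus markers had 0 calls in limma, 0 by the rank-sum test and 0 at an unadjusted p under 0.05. Red blood cell markers had 0, 0 and 1 (Hba-a2, which was called higher under some alternatives). In bulk RNA, a change in the number of cells of a type and a change in RNA per cell cannot be told apart. The part of cell composition in the enzyme differences was not tested.

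GC content also moved with the result. After the mean of each gene was subtracted, the mean slope of a library's values on exonic GC content was larger in HF-HI than in sham by 0.20 per 10% GC (SD 0.078 over 10 sham and 0.060 over 11 HF-HI libraries). That subtraction leaves only the difference between the groups to be read, not the sign within either. The median exonic GC content was 52.6% for the 13 enzyme genes that were higher, 46.8% for the 12 that were lower and 52.1% for the 10 not called. Over all genes these medians were 51.9%, 44.2% and 47.2%. Across the 35 genes, which share libraries and are not independent, Spearman's rho between difference and GC content was 0.37, and across all genes with a GC content it was 0.48. With log2 exon length it was 0.40 across the 35 genes, 0.41 after removal of GC trends, and 0.084 across all genes. The median exon length was 5072 bases for the enzyme genes that were higher and 3578 for those that were lower. With each library's GC trend removed, 10 enzyme genes were higher and 15 lower, where 29.2% of all genes were higher and 31.0% lower (60.2% called). Of the 25 calls, 20 were kept with the same direction (9 higher and 11 lower). The calls of Pfkl, Aldoa, Gapdh, Eno1 and Pdhx were lost, and Pfkm, Pgam1, Eno2 and Pcx were called lower and Dlst higher. With length trends removed as well, a choice made after seeing the data, 11 enzyme genes were higher and 10 lower, where 28.6% of all genes were higher and 30.1% lower. The calls of Pfkl, Pgk1, Eno1, Pdhx, Idh3b and Fh1 were then lost, and Eno2 and Pcx were called lower. How much of each difference the GC and length trends account for was not tested.

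**Figure D2:**
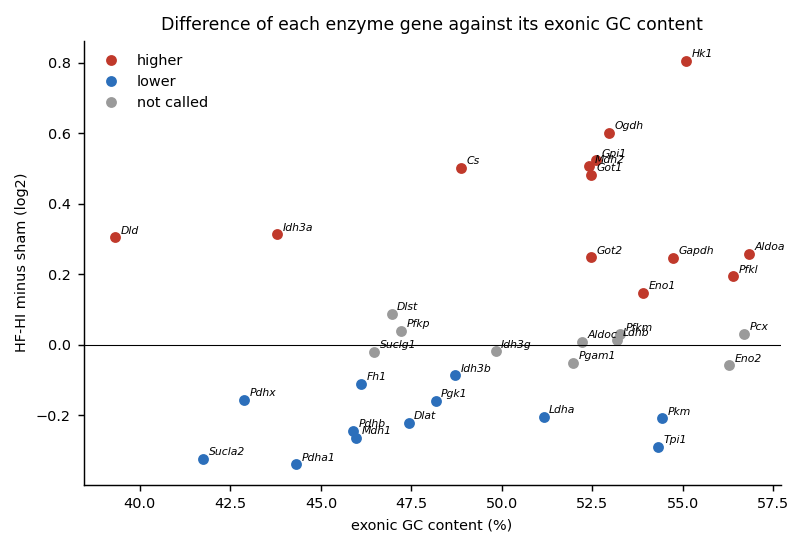
Difference between HF-HI and sham (log2) against the exonic GC content (percent) of each of the 35 genes, coloured by call. Dld (39.3% GC) and Idh3a (43.8%) were higher in HF-HI at low GC content, and Pkm (54.4%) and Tpi1 (54.3%) were lower at high GC content, opposite to the tendency over all genes.

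Sham libraries varied more than HF-HI libraries for many of these genes. The SD was larger in sham for 22 of the 35, and for 68.1% of all genes. Sham replicates 1, 2 and 3 held the 3 lowest sham values of Hk1, Dld, Ogdh, Mdh2, Got1 and Got2, and the 3 highest of Pgam1 and Suclg1. Over all genes they held the 3 lowest values in 5.47% and the 3 highest in 2.54%. With these 3 libraries left out, a choice made after seeing the data, 12 of the enzyme genes were higher and 10 lower, where 29.8% of all genes were higher and 30.5% lower, and the calls of Dld, Idh3b and Fh1 were lost. HF-HI replicates 9 and 11 had the lowest relative depths of their group, and leaving both out changed none of the 35 calls.

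Levels can be compared between genes only per length, here as the mean sham value minus the log2 of the exon length in kilobases. On that scale the most abundant were Aldoa (12.20), Mdh1 (11.89) and Pkm (11.85), and 10 of the first 11 places were held by cytosolic enzymes of glycolysis or lactate dehydrogenase. The lowest were Dlst (6.73), Pdhx (6.87) and Pfkl (7.06). Hexokinase 1, which opens the pathway, stood at 7.70, place 29 of 35.

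Glycolysis began with the largest difference of the group. Hk1 (ENSMUSG00000037012, chr10:62268855-62379908, GRCm38) encodes the main brain hexokinase, which phosphorylates glucose and binds the outer mitochondrial membrane. Its values ran from 10.59 to 10.97 in sham (median 10.82) and from 11.44 to 11.75 in HF-HI (median 11.61). The groups were fully apart, with a difference of 0.81 ± 0.050 (SE), an increase of 74.7% (adjusted p = 4.18e-11). The difference was 0.64 with GC trends removed and 0.72 without sham replicates 1 to 3. Gpi1, glucose-6-phosphate isomerase, was higher by 0.52 ± 0.069 (SE, adjusted p = 8.70e-07), with all 11 HF-HI libraries above the sham median.

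The phosphofructokinase genes encode the subunits of the committed step, in which fructose 6-phosphate becomes the bisphosphate. Pfkl, the liver-type subunit, ran from 9.62 to 9.94 in sham (median 9.80) and from 9.65 to 10.13 in HF-HI (median 10.03). The groups overlapped through HF-HI replicates 6 and 11, the latter near the bottom of the sham range, and the difference was 0.19 ± 0.050 (SE, adjusted p = 0.00157), but 0.00073 with GC trends removed (adjusted p = 0.990). Pfkm, the muscle type, ran from 11.48 to 11.65 in sham (median 11.59) and from 11.40 to 11.78 in HF-HI (median 11.64). Pfkp, the platelet type, ran from 11.86 to 12.04 (median 11.98) and from 11.85 to 12.13 (median 12.02). Of the HF-HI libraries, 4 lay above the sham range of Pfkm and 3 below it, with an SD of 0.13 against 0.052 in sham. Neither gene was called, and the differences were 0.029 (adjusted p = 0.559) and 0.039 (adjusted p = 0.282). Both signs turned when libraries were centred on their medians. Per kilobase, Pfkm was the most abundant of these subunits in sham (9.84, against 8.22 for Pfkp and 7.06 for Pfkl).

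Aldolases split the bisphosphate. Aldoa, the widely expressed form, ran from 13.60 to 13.88 in sham (median 13.74) and from 13.78 to 14.09 in HF-HI (median 14.01). The ranges touched only where the lowest HF-HI library entered the upper sham range, and the difference was 0.26 ± 0.040 (SE, adjusted p = 7.27e-06). It was 0.055 with GC trends removed (adjusted p = 0.338), and 0.14 with length trends removed as well (adjusted p = 0.00894). Aldoc, the form enriched in astrocytes and in bands of cerebellar Purkinje cells, ran from 12.66 to 13.09 in sham (median 12.86) and from 12.64 to 13.02 in HF-HI (median 12.88). Its groups overlapped fully, and it was not called (0.0084, adjusted p = 0.894, with the sign turned by centring and by quantile normalization).

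Tpi1, triosephosphate isomerase, which interconverts both products of aldolase, had the most negative difference in glycolysis. The gene (ENSMUSG00000023456) lies at chr6:124810586-124814296 (GRCm38). It ran from 12.22 to 12.39 in sham (median 12.32) and from 11.80 to 12.20 in HF-HI (median 12.06). The groups did not overlap, and the difference was -0.29 ± 0.043 (SE), a change of -18.2% (adjusted p = 3.78e-06). It was -0.43 after removal of GC trends. Gapdh, the dehydrogenase that makes glycolytic NADH and a common reference gene, was higher by 0.25 ± 0.053 (SE, adjusted p = 2.98e-04) in 10 of 11 HF-HI libraries against the sham median. Gapdh was not called with GC trends removed (0.093, adjusted p = 0.0532), but was with length trends removed as well (0.13, adjusted p = 0.0105).

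The later steps were lower or not called, apart from Eno1. Pgk1, phosphoglycerate kinase, was lower by an average of -0.16 (adjusted p = 0.00485), but was at -0.048 and not called with GC and length trends removed (adjusted p = 0.295). Pgam1, phosphoglycerate mutase, was not called (-0.051, adjusted p = 0.374), but was called lower with GC trends removed (-0.14) and with depth as a covariate (-0.10). Eno1, the enolase of glia and most tissues, ran from 12.53 to 12.84 in sham (median 12.74) and from 12.71 to 12.95 in HF-HI (median 12.85). Its groups overlapped in part, with 10 of 11 HF-HI libraries above the sham median, and the difference was 0.15 ± 0.041 (SE, adjusted p = 0.00304), or 0.011 with GC trends removed (adjusted p = 0.862) and 0.095 with libraries centred. Eno2, the neuronal enolase, ran from 13.24 to 13.38 in sham (median 13.33) and from 13.02 to 13.41 in HF-HI (median 13.25). Its HF-HI values spread across the sham range and past both ends of it, and it was not called (-0.058, adjusted p = 0.174). It was called lower after centring (-0.11), after quantile normalization, with depth as a covariate and with GC trends removed (-0.25). Pkm, pyruvate kinase, which makes pyruvate, was lower by an average of -0.21 ± 0.032 (SE, adjusted p = 7.80e-06) in all 11 HF-HI libraries against the sham median, and by -0.36 with GC trends removed. Over the 14 glycolytic genes 6 were higher, 3 lower and 5 not called, with a median difference of 0.034. Removal of GC trends left 2 higher (Hk1 and Gpi1) and 6 lower.

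**Figure D3:**
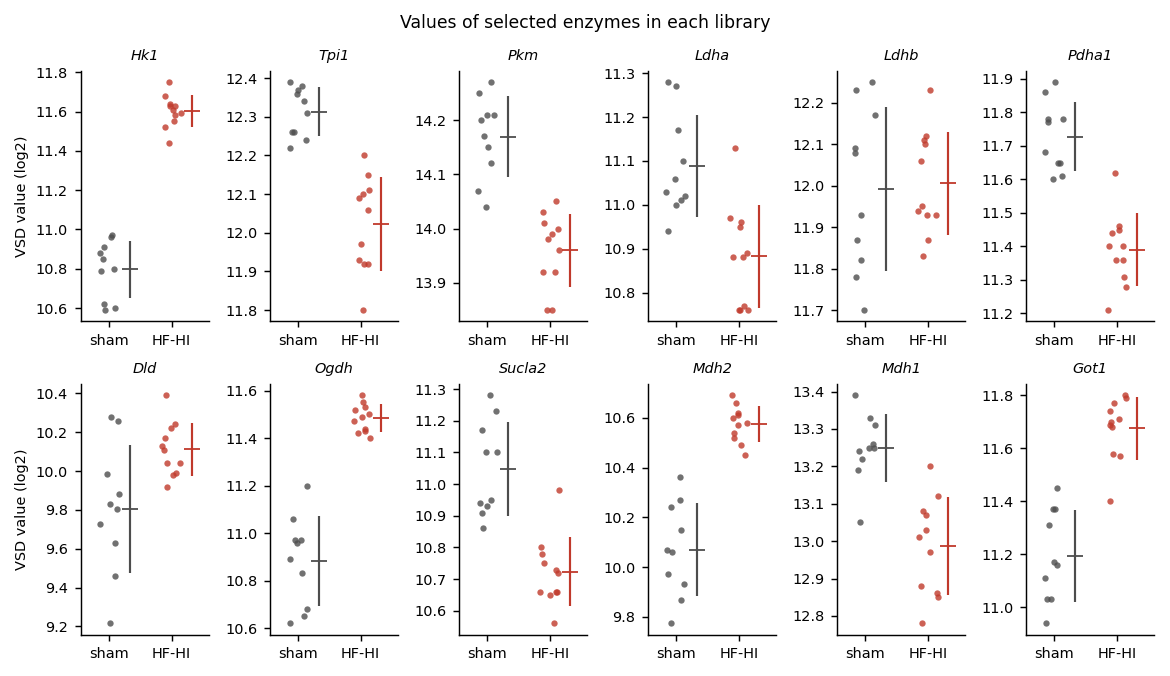
Variance-stabilized value (log2) of 12 enzyme genes in each of the 10 sham and 11 HF-HI libraries. Points are libraries, and bars beside them are the mean and SD. Hk1, Tpi1, Ogdh and Mdh2 show no overlap of the groups, Ldhb overlaps fully, and Dld has a sham SD of 0.33 against 0.14 in HF-HI.

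Genes for lactate dehydrogenase, which interconverts pyruvate and lactate, divided by subunit. Ldha, whose subunit is linked to lactate production, ran from 10.94 to 11.28 in sham (median 11.04) and from 10.76 to 11.13 in HF-HI (median 10.88). Most HF-HI libraries lay below the sham range or at its foot, 10 of 11 below the sham median, and the difference was -0.20 ± 0.049 (SE, adjusted p = 0.00101). Ldhb, whose subunit is linked to lactate use, ran from 11.70 to 12.25 in sham (median 12.01) and from 11.83 to 12.23 in HF-HI (median 11.95). The groups overlapped fully, and Ldhb was not called (0.015, adjusted p = 0.853, with the sign turned by centring). Per kilobase Ldhb exceeded Ldha in sham (11.34 against 9.36).

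The pyruvate dehydrogenase complex joins an E1 decarboxylase (Pdha1 and Pdhb), an E2 acetyltransferase (Dlat), an E3 dehydrogenase (Dld) and an E3-binding protein (Pdhx). Pdha1 (ENSMUSG00000031299, chrX:160122209-160138413), which carries the phosphorylation sites that switch the complex off, ran from 11.60 to 11.89 in sham (median 11.73) and from 11.21 to 11.62 in HF-HI (median 11.40). A single HF-HI value reached the sham range, and the difference was -0.34 ± 0.045 (SE), a change of -20.9% (adjusted p = 1.10e-06). Pdhb (-0.24, adjusted p = 0.00235) and Dlat (-0.22, adjusted p = 2.38e-04) were lower as well, each in all 11 HF-HI libraries against the sham median. Pdhx was lower by an average of -0.16 (adjusted p = 0.0175), a call lost with GC trends removed (-0.073, adjusted p = 0.174) and with depth as a covariate (adjusted p = 0.0935).

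Dld went the other way. This subunit is shared with the 2-oxoglutarate dehydrogenase and branched-chain complexes and the glycine cleavage system. Dld (ENSMUSG00000020664, chr12:31331277-31351453) ran from 9.22 to 10.28 in sham (median 9.82) and from 9.92 to 10.39 in HF-HI (median 10.11). Sham replicates 1, 2 and 3 were the lowest at 9.63, 9.22 and 9.46, replicates 5, 8, 9 and 10 also lay below all HF-HI libraries, and sham replicates 6 and 7 reached 10.28 and 10.26. The difference was 0.30 ± 0.099 (SE, adjusted p = 0.00965), and 0.14 without those 3 libraries (adjusted p = 0.112), where Dld was not called. It was 0.44 with GC trends removed (adjusted p = 2.45e-04) and 0.49 with length trends removed as well. Pcx, pyruvate carboxylase, the anaplerotic enzyme of astrocytes, was not called (0.030, adjusted p = 0.571), but was called lower with GC trends removed (-0.17, adjusted p = 0.00394), and its sign turned when libraries were centred.

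In the TCA cycle Cs, Idh3a, Ogdh and Mdh2 were higher and Idh3b, Sucla2 and Fh1 lower. Cs, citrate synthase, which joins acetyl-CoA to oxaloacetate, was higher by 0.50 ± 0.066 (SE, adjusted p = 8.17e-07), and all 11 HF-HI libraries lay above the sham median. Of the subunits of NAD-dependent isocitrate dehydrogenase, the catalytic Idh3a was higher by 0.31 ± 0.075 (SE, adjusted p = 8.35e-04). Idh3b was lower by an average of -0.087 (adjusted p = 0.0184) and the regulatory Idh3g was not called (-0.018, adjusted p = 0.646). Without sham replicates 1 to 3, Idh3b was at -0.062 (adjusted p = 0.123), with libraries centred at -0.14, and with GC and length trends removed at -0.055 (adjusted p = 0.0934).

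Ogdh (ENSMUSG00000020456, chr11:6291633-6356642, GRCm38) encodes the E1 subunit of the 2-oxoglutarate dehydrogenase complex, a rate-controlling step that responds to calcium. It ran from 10.62 to 11.20 in sham (median 10.92) and from 11.40 to 11.58 in HF-HI (median 11.49). The groups did not overlap, the HF-HI libraries lay close together, and the difference was 0.60 ± 0.056 (SE), an increase of 51.7% (adjusted p = 8.37e-09). Without sham replicates 1 to 3 it was 0.50, and with GC trends removed 0.49. Dlst, the E2 subunit of the same complex, was not called (0.088, adjusted p = 0.0770), although all 11 HF-HI libraries lay above the sham median, and was called without sham replicate 3 (0.10, adjusted p = 0.0470), 4 (0.11, adjusted p = 0.0133) or 6 (0.10, adjusted p = 0.0368).

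Sucla2 (ENSMUSG00000022110, chr14:73525319-73596142) encodes the ATP-specific subunit of succinyl-CoA synthetase, the form typical of neurons. It ran from 10.86 to 11.28 in sham (median 11.02) and from 10.56 to 10.98 in HF-HI (median 10.72). The groups overlapped only through 1 HF-HI library, replicate 9, and the difference was -0.32 ± 0.054 (SE, adjusted p = 1.89e-05), or -0.18 with GC and length trends removed. Suclg1, the subunit common to both forms of the enzyme, was not called (-0.020, adjusted p = 0.756). Fh1, fumarase, was lower by an average of -0.11 (adjusted p = 0.00818), and at -0.092 without sham replicates 1 to 3 (adjusted p = 0.0501). It was not called with GC and length trends removed either (-0.022, adjusted p = 0.603), nor with GC trends removed and the replicate block (-0.070, adjusted p = 0.131).

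Mdh2 (ENSMUSG00000019179, chr5:135778480-135790398), the mitochondrial malate dehydrogenase that closes the cycle, ran from 9.77 to 10.36 in sham (median 10.07) and from 10.45 to 10.69 in HF-HI (median 10.58). The groups did not overlap, and the difference was 0.51 ± 0.058 (SE, adjusted p = 1.20e-07), or 0.42 without sham replicates 1 to 3. Its cytosolic partner in the malate-aspartate shuttle, Mdh1 (ENSMUSG00000020321, chr11:21556787-21572367), ran from 13.05 to 13.39 in sham (median 13.25) and from 12.78 to 13.20 in HF-HI (median 13.01). Mdh1 was lower in HF-HI, with every HF-HI library below the sham median and the ranges overlapping, by an average of -0.26 ± 0.048 (SE, adjusted p = 5.38e-05), or -0.13 with GC and length trends removed. Got1 (ENSMUSG00000025190, chr19:43499752-43524605), cytosolic aspartate aminotransferase, ran from 10.94 to 11.45 in sham (median 11.17) and from 11.40 to 11.80 in HF-HI (median 11.70). Only the lowest HF-HI library fell inside the sham range. The difference was 0.48 ± 0.060 (SE, adjusted p = 4.66e-07), or 0.40 without sham replicates 1 to 3. The mitochondrial form, Got2, was higher by 0.25 ± 0.055 (SE, adjusted p = 4.54e-04), and by 0.15 both with GC trends removed and without sham replicates 1 to 3. Of the 10 TCA cycle genes 4 were higher and 3 lower, and of the 3 shuttle genes 2 were higher and 1 lower.

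Differences between isozymes and subunits were tested directly. For each of 12 pairs the value of one gene minus that of the other was taken within each library, which cancels any scaling common to the library, and compared between the groups (permutation test, 100000 resamples, two-sided). The pairs were chosen with earlier results of these data known. Of the 12 pairs, 10 passed at an adjusted p under 0.05 (Benjamini-Hochberg over the pairs), and 7 with GC trends removed. No share was computed for other gene pairs, and 66.3% of all single genes were called. Whether the count is particular to isozymes and subunits was not tested. The widest shift was between the malate dehydrogenases. Mdh1 minus Mdh2 ran from 2.80 to 3.47 in sham (median 3.15) and from 2.26 to 2.63 in HF-HI (median 2.39). The groups did not overlap, and the shift was -0.77 (permutation p = 4e-05), or -0.64 with GC trends removed (permutation p = 4e-05), where Mdh1 has 46.0% GC and Mdh2 52.4%.

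The transaminase pair is close to equal in GC content (Got1 52.5%, Got2 52.5%). Got1 minus Got2 ran from 0.038 to 0.31 in sham (median 0.20) and from 0.075 to 0.52 in HF-HI (median 0.45). HF-HI replicate 9 alone lay within the sham range, the other HF-HI libraries lay above it, and the shift was 0.23 (permutation p = 3e-04), the same to 2 decimals with GC trends removed. Idh3a rose against both partners, by 0.40 against Idh3b (permutation p = 4.8e-04) and by 0.33 against Idh3g (permutation p = 0.0012). Idh3b against Idh3g did not pass (-0.068, permutation p = 0.148), but did without HF-HI replicate 9 (-0.094, adjusted p = 0.0203), which stood at 0.91 where the other HF-HI libraries ran from 0.51 to 0.75. No other library left out changed which of the 12 pairs passed. The Idh3a shifts were 0.49 and 0.45 after removal of GC trends.

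Eno1 rose against Eno2 by 0.20 (permutation p = 4e-05) and by 0.26 with GC trends removed. Ldha fell against Ldhb, a shift of -0.22 (permutation p = 0.00296), or -0.18 with GC trends removed (permutation p = 0.0155). This pair did not pass with GC trends removed and the replicate block (-0.17, adjusted p = 0.0737). Aldoa rose against Aldoc by 0.25 (permutation p = 3.2e-04), but the adjusted p was 0.0619 with GC trends removed (shift 0.14). Pfkl rose against Pfkm by 0.16 and against Pfkp by 0.15 (permutation p = 0.0015 and 2.6e-04), and neither passed with GC trends removed (adjusted p = 0.0907 and 0.204), where the second shift turned to -0.044. Pfkm against Pfkp did not pass (-0.010, permutation p = 0.821) and did with GC trends removed (-0.14, adjusted p = 0.00368). No pair was tested with length trends removed as well, or without sham replicates 1 to 3. As single genes with GC and length trends removed, Pfkl was at -0.023, Pfkm at -0.030 and Pfkp at -0.016, none of them called. Pdha1 fell slightly against Pdhb, by an average of -0.095 (permutation p = 0.0176), but with GC trends removed the shift was -0.072 (adjusted p = 0.108). It did not pass with the replicate block either (-0.086, adjusted p = 0.101).

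**Figure D4:**
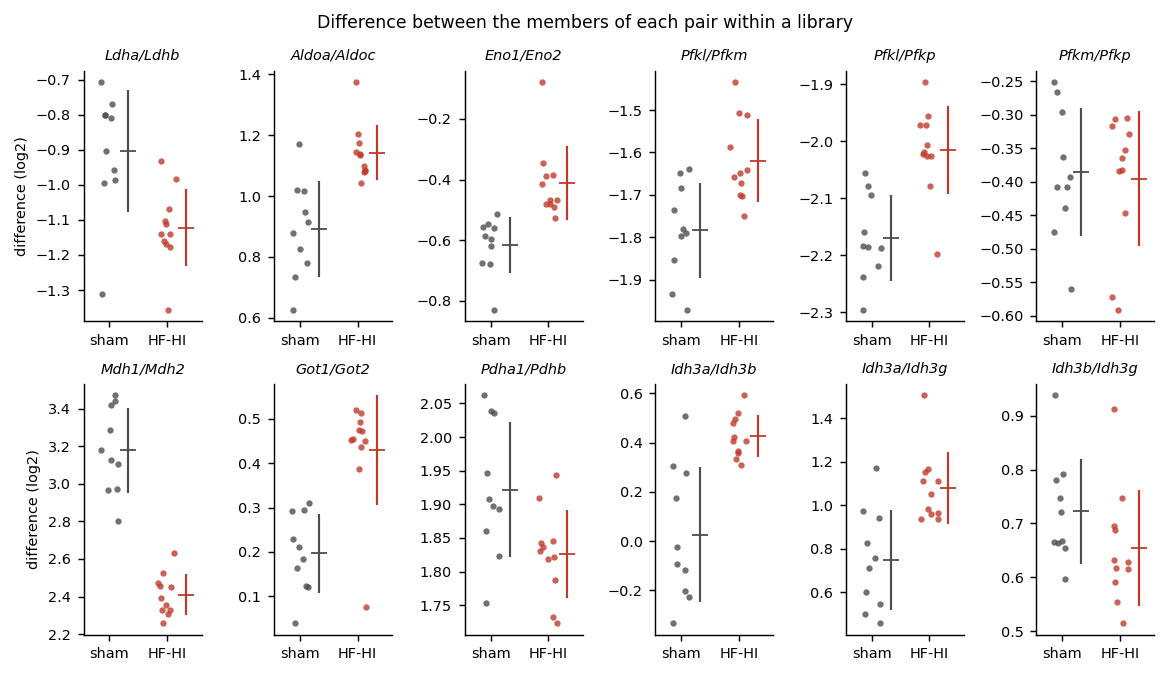
Value of the first gene minus that of the second (log2) within each of the 10 sham and 11 HF-HI libraries, for the 12 pairs. Points are libraries, and bars beside them are the mean and SD. The groups do not overlap for Mdh1/Mdh2, with medians of 3.15 and 2.39.

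The other genes of these pathways were described from 10 lists with 152 names, of which 73 were in the table: 15 were higher (20.5%), 27 lower (37.0%) and 31 not called, beside 32.6% higher and 33.6% lower over all genes. Removal of GC trends left 14 higher and 25 lower. With libraries centred, Slc25a3, Epas1, Prkaa1, Prkaa2, Prkag2, Stk11 and Ndrg1 were no longer called higher. Slc16a1, Pdk3, Sdhc, Slc25a11, Pygb, Pgm1, Epm2a, Prkab2 and Ero1l were then called lower, and no lower call was lost. Over all genes, centring took the share of calls that were higher from 49.3% to 37.9%. Transport of glucose and lactate had 0 of 5 genes called in limma, 0 by the rank-sum test and 0 at an unadjusted p under 0.05. Differences were 0.045 for Slc2a1, the glucose carrier of the blood-brain barrier and astrocytes, -0.032 for Slc2a3, the neuronal carrier, and -0.074 for Slc16a1, a lactate carrier. The adjusted p values of these carriers were 0.459, 0.534 and 0.195. After removal of GC trends 1 of the 5 was higher and 1 lower, and with libraries centred Slc16a1 was called lower (-0.13, adjusted p = 0.0298). Hk2 was not analysed here.

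Entry of pyruvate into mitochondria and its control held 4 lower genes of 6 and 0 higher. Over all genes 33.6% were lower and 32.6% higher. Mpc1 (-0.16, adjusted p = 0.0106) and Mpc2 (-0.33, adjusted p = 1.4e-05) encode both subunits of the mitochondrial pyruvate carrier. Pdp1, the phosphatase that reactivates the pyruvate dehydrogenase complex, was at -0.29 (adjusted p = 0.00367) and Pdk1, a kinase that inactivates it, at -0.095 (adjusted p = 0.0437). After removal of GC trends Mpc1 and Mpc2 were called lower, and Pdp1 (adjusted p = 0.0519) and Pdk1 (adjusted p = 0.126) were not called, though Pdk1 was with length trends removed as well (-0.10). Mpc1 was not called with GC and length trends removed (-0.023, adjusted p = 0.681) or with depth as a covariate (-0.12, adjusted p = 0.0502). Pdk1 was not called without sham replicates 1 to 3, with the replicate block (adjusted p = 0.062) or without HF-HI replicates 9 and 11. With 1 library left out, the adjusted p of Pdk1 reached 0.0941.

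Of 8 other TCA cycle and malic enzyme genes 1 was higher and 3 lower, where 32.6% of all genes were higher and 33.6% lower. Sdha, the flavoprotein subunit of succinate dehydrogenase, ran from 10.95 to 11.81 in sham (median 11.59) and from 12.02 to 12.25 in HF-HI (median 12.16). The groups did not overlap, and the difference was 0.66 (adjusted p = 2.6e-06). The SD was 0.33 in sham and 0.076 in HF-HI, and without sham replicates 1 to 3 Sdha was higher by 0.46. Its partners Sdhb (-0.17, adjusted p = 8.6e-04) and Sdhd (-0.25, adjusted p = 2.0e-05) were lower and Sdhc was not called (-0.19, adjusted p = 0.0580). With GC trends removed Sdhb was at -0.34, and Sdhc was called lower (-0.22), as it was with libraries centred (-0.24). Sdhd was not called with length trends removed as well (-0.074, adjusted p = 0.0803).

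The counts of the remaining lists stand beside 32.6% higher and 33.6% lower over all genes. Shuttles and anaplerosis had 2 higher and 3 lower of 12, with Glud1, glutamate dehydrogenase, at -0.29 and Mut at -0.19. The pentose phosphate pathway had 2 lower of 3 (Taldo1 -0.27 and Rpe -0.27), glycogen metabolism 5 lower and 0 higher of 9 (Ugp2 -0.28, Ppp1r3c -0.22 and Pgm2l1 -0.20), and ketone body use 2 lower of 2 (Acat1 -0.23 and Oxct1 -0.22). Pygb, Pgm1 and Epm2a of the glycogen genes were called lower as well with libraries centred. A list of 4 other genes, made by glycolytic name, had Bpgm higher (0.19) and Pfkfb2 lower (-0.11), and also held Pgam5 (-0.29, lower), which is named as a mutase but encodes a mitochondrial protein phosphatase. Of 16 regulators 8 were higher and 3 lower, with Arnt2 (0.51), a partner of the hypoxia-inducible factors, Vhl (-0.29), which marks them for degradation, and Egln2 (0.23), an oxygen sensor, the largest. Of 8 genes that respond to low oxygen outside glycolysis 3 were higher and 3 lower, led by Bnip3 (-0.31), Mxi1 (0.28) and Vegfa (0.21). With GC trends removed the regulators had 6 higher and 2 lower, and the genes that respond to low oxygen 2 and 1. With libraries centred, Arnt, Arnt2 and Egln2 were the only regulators called higher, and Hif1a, Vhl, Prkab2 and Sirt3 were called lower. Of the genes that respond to low oxygen, Vegfa and Mxi1 were then higher, and Bnip3, Bnip3l, Ero1l and Kdm3a lower. Removal of GC trends ended the calls of Mut, Pgm2l1, Pfkfb2, Egln2 (which turned to -0.062) and Vegfa, and left Ugp2 at -0.16. With length trends removed as well, Pgm2l1 (-0.13), Pfkfb2 (-0.10) and Vegfa (0.15) were called again in the same direction, Ppp1r3c was not called (-0.10), and Ugp2 (-0.092), Rpe (-0.11), Acat1 (-0.13) and Bnip3 (-0.12) were called with smaller differences. Without sham replicates 1 to 3, Pfkfb2 was not called and Taldo1 was at -0.18.

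Promoters were searched because many glycolytic genes are known targets of the hypoxia-inducible factors. RefSeq sequence of GRCm38.p6, 250 bases before to 50 after each start, was matched for 34 of the 35 genes (not Idh3a). ACGTG, a form of the core of the hypoxia response element, was searched on either strand, and other forms of that core were not. ACGTG was found for 14 of the 34, for 31.5% of all genes of the table with an entry and in 19.6% of all promoters. It was found in 4 of 12 genes that were higher, 5 of 12 that were lower and 5 of 10 not called, and those letters are also part of the E-box CACGTG. The sequence AAGGTCA, bound by estrogen-related receptors, was found for 4 (Eno1, Got1, Ogdh and Tpi1) against 3.81% of genes, CCGGAAG, bound by GABPA and other ETS factors, for 4 against 19.0%, and CATGCGC, part of the NRF1 site, for 2 against 8.69%. A match is a description of letters in this window only.

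Promoters of Hk1 and Ogdh (higher in HF-HI) and of Pkm and Ldha (lower) are shown because all 4 hold this form of the hypoxia core. These promoters have it in capitals (ACGTG or its reverse complement), although the RNAs differed in opposite directions. They lie at chr10:62340372-62340671 (minus strand), chr11:6291347-6291646 (plus strand), chr9:59656977-59657276 (plus strand) and chr7:46845554-46845853 (plus strand), and each is given 5′ to 3′ for the listed start of its gene with the most matches to that core, overlapping ones counted once, or for Ogdh, whose 6 starts have 1 match each, for the first.
Hk1: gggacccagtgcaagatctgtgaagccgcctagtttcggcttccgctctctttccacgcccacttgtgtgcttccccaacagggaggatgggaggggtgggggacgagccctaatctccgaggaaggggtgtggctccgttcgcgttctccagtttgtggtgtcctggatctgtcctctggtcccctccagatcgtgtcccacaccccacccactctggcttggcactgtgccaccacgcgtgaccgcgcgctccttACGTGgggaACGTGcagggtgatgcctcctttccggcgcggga
Ogdh: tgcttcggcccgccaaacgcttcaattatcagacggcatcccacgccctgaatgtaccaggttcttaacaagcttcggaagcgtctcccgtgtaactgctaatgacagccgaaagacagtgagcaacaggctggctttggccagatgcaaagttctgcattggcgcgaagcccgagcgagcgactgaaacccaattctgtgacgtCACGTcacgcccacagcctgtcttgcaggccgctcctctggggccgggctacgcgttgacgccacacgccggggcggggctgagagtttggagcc
Pkm: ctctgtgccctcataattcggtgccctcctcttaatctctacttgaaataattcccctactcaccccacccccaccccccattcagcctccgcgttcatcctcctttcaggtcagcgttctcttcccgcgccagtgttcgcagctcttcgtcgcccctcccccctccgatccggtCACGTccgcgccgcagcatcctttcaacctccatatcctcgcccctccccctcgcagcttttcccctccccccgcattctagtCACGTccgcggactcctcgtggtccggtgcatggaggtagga
Ldha: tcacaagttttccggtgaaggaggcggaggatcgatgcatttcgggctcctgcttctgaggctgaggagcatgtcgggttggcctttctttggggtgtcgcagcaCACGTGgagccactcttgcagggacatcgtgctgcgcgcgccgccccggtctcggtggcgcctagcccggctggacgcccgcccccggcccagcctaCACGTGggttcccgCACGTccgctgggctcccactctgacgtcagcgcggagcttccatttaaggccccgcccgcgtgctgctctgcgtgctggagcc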

How the data were processed

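Stranded total RNA libraries of mouse cortex were made after removal of ribosomal RNA. Per the submitters' notes and the methods, the authors aligned reads to mm10 with STAR, counted them per transcript with eXpress and normalized with DESeq2. What was deposited is log2 expression after variance stabilization, so no count model was fitted, and where reads are few a difference understates the log2 ratio. Members and lists were chosen with earlier results of these data known.

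Tests used limma (version 3.58.1, R 4.3.3), two-sided, with lmFit, a trended eBayes and adjustment by Benjamini-Hochberg over all genes. Positions, exon lengths and GC content came from GENCODE for GRCm38, the same assembly. Lowess trends on GC content (span 0.3) were removed from each library as an alternative, which would also remove biology that follows GC content. Replicate block, centring, quantile normalization, eBayes without a trend, the Wilcoxon test, a filter on low values, a threshold of 0.1, a depth covariate and each library left out were the others. Removal of length trends and leaving out several libraries were chosen after seeing the data. Relative depth used values where 2 to their power lies between 500 and 600. The code was tested on simulated data. Python 3.11.15, numpy 2.4.6, scipy 1.17.1, pandas 2.3.3, statsmodels 0.14.6 and matplotlib 3.10.9 were used.

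All genes of the main list could be named, with full values for the largest difference in each direction in each step and for the Ldh, Aldo, Eno and Pfk genes. In other lists up to 3 genes with the largest absolute difference among those called were named, plus Hk2, Sdha, Mpc1, Mpc2, Slc2a1, Slc2a3 and Slc16a1. Pdk1, Sdhc, single markers and genes given for calls after centring were named, and Mdh2 and Sdha given in full, after their values were seen. Reads shared with near-identical copies may have been split in counting, and GENCODE names such copies for Aldoa, Gapdh, Pgk1, Pgam1, Eno1, Ldha and Got2. Pfkm and Pkm share exon sequence with another annotated gene on the same strand.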

Additional observations from a re-analysis of the deposited data

Results flagged for a closer look

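In the sham group, 3 of 49 quantities examined had a value far from the other libraries, by the gap to its neighbour as a share of the range (critical value 0.466 for 10 values). Chance flags about 1 in 20. Idh3g was lowest in sham replicate 2 (9.79, gap 0.475 of the range). Ldha minus Ldhb was lowest in sham replicate 4 (-1.31, gap 0.526). Eno1 minus Eno2 was lowest in sham replicate 9 (-0.83, gap 0.477). The HF-HI group, with 11 libraries, was not examined in this way.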

How the results depend on the processing

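The count of genes called ran from 2804 (lowest quartile left out) to 4032 (threshold 0.1) around 3674, and from 3562 to 3805 with 1 library left out. Enzyme genes higher ran from 9 (GC trends removed with the replicate block) to 14 (threshold 0.1, or without sham replicate 3, 4 or 6), and lower from 10 (GC and length trends removed, or sham replicates 1 to 3 left out) to 15 (GC trends removed). After centring 1448 genes were higher and 2376 lower, against 1547 and 2242 with quantile normalization, and the share of calls that were higher fell from 49.3% to 37.9% and 40.8%, with 13 enzyme genes higher and 13 lower in each. Pairs past the threshold numbered 10, 7 with GC trends removed, and 6 with GC trends removed and the replicate block, and the cause was not tested. Each library left out gave 10 pairs, except HF-HI replicate 9, which gave 11 (Idh3b minus Idh3g added).

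With the replicate block, 3497 genes, 13 higher and 11 lower enzyme genes (Idh3b lost, adjusted p = 0.0687) and 9 pairs passed. The pair lost was Pdha1 minus Pdhb. Hba-a2 (adjusted p = 0.0623 as reported) was called higher with the block (0.49, adjusted p = 0.0185) and with GC and length trends removed (0.53, adjusted p = 0.0221). Same-numbered libraries of the groups share only a number: the correlation of their deviations ran from -0.31 to 0.36 over 10 pairs, 4 above 0.1, and 0 sham libraries correlated best with their own number.

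Of the called enzyme genes, 1 changed sign under any alternative: Pfkl, at -0.023 with GC and length trends removed. The cause was not tested for it or for the uncalled genes that follow. With GC trends removed, Pfkm was at -0.092, Aldoc -0.088, Ldhb -0.10, Pcx -0.17, Suclg1 0.00032 and Pfkl minus Pfkp -0.044. With GC trends removed and the replicate block they were -0.077 (Pfkm), -0.072 (Aldoc), -0.10 (Ldhb), -0.17 (Pcx) and -0.033 (Pfkl minus Pfkp). With GC and length trends removed, Pfkm was at -0.030, Pfkp -0.016, Aldoc -0.023, Pgam1 0.0088, Pcx -0.15, Idh3g 0.022 and Suclg1 0.021. Centring gave -0.023 (Pfkm), -0.013 (Pfkp), -0.044 (Aldoc), -0.037 (Ldhb) and -0.021 (Pcx). Quantile normalization gave -0.039 (Aldoc), -0.018 (Ldhb) and -0.0038 (Pcx), and depth as a covariate -0.014 (Pfkm), -0.043 (Aldoc) and -0.0077 (Pcx). Without sham replicates 1 to 3, Aldoc was at -0.0090, Pgam1 0.016 and Suclg1 0.048, and without HF-HI replicates 9 and 11, Ldhb was at -0.00093 and Idh3g 0.0012. With 1 library left out, Aldoc ran from -0.012 to 0.036, Ldhb from -0.017 to 0.044, Suclg1 from -0.042 to 0.0013 and Pfkm minus Pfkp from -0.029 to 0.0096. Depth in reads is unknown, so no limit of detection can be given.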
